A study of Mus musculus with 12 samples.

Results

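The genes of inflammatory and lytic cell death described here are 8 by symbol: the inflammatory caspases Casp1, Casp4 and Casp12, the pore protein gene Gsdmd, the switch protease gene Casp8, and the necroptosis genes Ripk1, Ripk3 and Mlkl. They were chosen by name, with earlier results of these data known. For this, the Ensembl IDs of the deposited count table were matched to symbols. All 8 were among its 56093 entries, and 6 passed the filter on low counts. Casp1 and Ripk3 did not pass it, and are given as counts. The samples were bulk RNA sequencing libraries of B16, a mouse melanoma cell line, transfected with short hairpin RNA. The 4 groups of 3 libraries were control hairpin cells (shRFP) and cells with a hairpin against syndecan-1 (shSdc1), each left unstimulated or given interferon gamma (IFNγ) at 10 ng/ml for 24 h. All 4 groups thus carried a hairpin. How many hairpins against Sdc1 were used is not given here, and loss of Sdc1 cannot be told apart from other actions of its hairpin. The labels do not call the libraries of a group separate cultures, so p-values reflect the spread between these libraries alone, and that spread may be technical. The words treated and untreated below refer to IFNγ.

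Pyroptosis is a lytic death in which an inflammatory caspase cuts gasdermin D, and the freed end of that protein forms pores in the plasma membrane. Caspase-1 is switched on in inflammasomes and also matures interleukins, while caspase-4 (often called caspase-11 in the mouse) senses lipopolysaccharide inside the cell. Necroptosis runs without caspases, through RIPK1 and RIPK3 to MLKL, which breaks the membrane once RIPK3 has phosphorylated it, and caspase-8 holds this route back by cutting the kinases. IFNγ responses are read out at promoter elements of the GAS and IRF types.

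Promoter sequences are shown for the genes whose transcripts changed with IFNγ and whose windows held letters of the GAS or IRF type. The windows run from 250 bases before to 50 bases after a RefSeq start on the build GRCm38.p6, and were found for 7 of the 8 genes, with 2 starts each for Casp4 and Ripk1. Gsdmd had no entry. Motifs were searched on both strands as GAS (TTCNNNGAA, in 8.3% of 32851 windows of 300 bases), as the longer IRF form (GAAA, any 2 bases, GAAA, 3.44%), as its shorter core (AANNGAAA, 23.9%, a form chosen after the sequences were seen and contained in the longer one) and as NF-kB (GGG, any 5 bases, CC, 50.8%). Capitals mark GAS and IRF-type matches, and in Casp4 also an NF-kB-type block. All 4 stretches are on the + strand and end before the start that they belong to.
Casp12, chr9:5345316-5345425: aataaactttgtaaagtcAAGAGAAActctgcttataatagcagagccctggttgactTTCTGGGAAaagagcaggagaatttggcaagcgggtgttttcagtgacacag
Casp4, chr9:5308659-5308808: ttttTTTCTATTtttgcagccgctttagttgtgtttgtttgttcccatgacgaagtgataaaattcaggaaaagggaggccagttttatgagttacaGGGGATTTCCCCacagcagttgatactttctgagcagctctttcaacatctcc
Casp8, chr1:58802327-58802441: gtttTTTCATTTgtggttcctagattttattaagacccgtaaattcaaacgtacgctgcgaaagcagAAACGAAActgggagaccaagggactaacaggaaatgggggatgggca
Ripk1, second start, chr13:34002759-34002873: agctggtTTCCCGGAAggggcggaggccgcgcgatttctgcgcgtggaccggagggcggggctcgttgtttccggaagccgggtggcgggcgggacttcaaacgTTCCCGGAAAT

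The Casp12 window held the GAS letters TTCTGGGAA at 2 places, positions -102 to -94 and -36 to -28 from the start. It also held IRF-type cores at -142 to -135 and 1 to 8. The second Ripk1 window also held 2 GAS matches, both TTCCCGGAA, at -108 to -100 and -11 to -3, and GAAATCGAAA across the start. Windows with 2 or more GAS matches made up 0.457% of the table. Casp4 had no GAS match, but its first window held IRF-type cores at -186 to -179 and 3 to 10. That window also held overlapping NF-kB-type matches in 1 block, and further ones at -39 to -30 and -14 to -5. NF-kB-type matches also lay in the Casp1 window (-158 to -149) and the second Ripk1 window (-140 to -131). Windows with 2 or more matches made up 27.4% for NF-kB and 5.34% for the IRF-type core. Casp8 had 2 IRF-type cores, at -171 to -164 and -108 to -101. The windows of Casp1, Ripk3 and Mlkl and the first window of Ripk1 held neither a GAS nor an IRF-type match. A match describes letters only and is no measure of binding.

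Libraries held 14337771 to 21548940 counts, so that 1 count was worth 0.0456 to 0.0704 counts per 1000000 (CPM, with totals scaled by edgeR's TMM factors). Sdc1, the targeted gene, was at 73.9 to 76.4 CPM in shRFP and 22.1 to 25.7 in shSdc1 without IFNγ, and at 79.6 to 102.7 and 25.1 to 27 CPM with it, lower in the knockdown as labelled. All 8 melanocyte lineage genes checked (among them Pmel, Tyr, Dct and Mlana) were expressed. Their summed level was 17600 to 17650 CPM in untreated shRFP, 13240 to 13660 in untreated shSdc1, 16940 to 18520 in treated shRFP and 11960 to 13400 in treated shSdc1. Of 16 leukocyte markers, 5 (Adgre1, Itgax, Cd3e, Ncr1 and Tyrobp) were at 0 in all 12 libraries, and Ptprc, the pan-leukocyte antigen CD45, had 1 count in all. The summed level of the 16 was 3.66 to 4.15 CPM, 9.48 to 9.77, 6.48 to 9.58 and 17.01 to 17.8 in the same order, carried mostly by Cd68. The third shSdc1 library without IFNγ stood apart in 1 entry, ENSMUSG00000119584, which took 4.79% of its counts and 0.0842 to 0.195% of those in the other 11.

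IFNγ raised every one of the 6 testable genes in both kinds of cells. In shRFP cells 6 of 6 were higher, where 31.6% of the 14089 genes tested were called and 17.2% were higher (edgeR quasi-likelihood test, Benjamini-Hochberg adjusted p under 0.05). In shSdc1 cells 6 of 6 were higher as well, where 30.5% of all genes were called and 17.5% were higher. The split over all genes depended on the scaling: 2422 of 4446 called genes were higher in shRFP and 2469 of 4295 in shSdc1, but 1759 of 4570 and 2047 of 4542 under upper-quartile scaling, by which all 6 genes were still higher. Casp4 passed the low-count filter through the treated shSdc1 libraries, where it is high. With the compared groups alone it was not kept in shRFP, and 5 genes were tested and higher there. Counts and medians over the 6 are therefore a description only. In both comparisons the group ranges stood apart for 6 of 6, as they did for 41.4% and 45.9% of all genes. The median log2 fold change of the 6, with Casp12 in shRFP at its lower bound, was 2.29 in shRFP and 2.45 in shSdc1, beside -0.0058 and 0.0042 over all genes. The sizes ran from 1.31-fold (Casp8 in shRFP) to at least 164-fold (Casp12 in shRFP). In bulk RNA, a change in transcript per cell and a change in the share of cells that express a gene cannot be told apart.

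**Figure D1:**
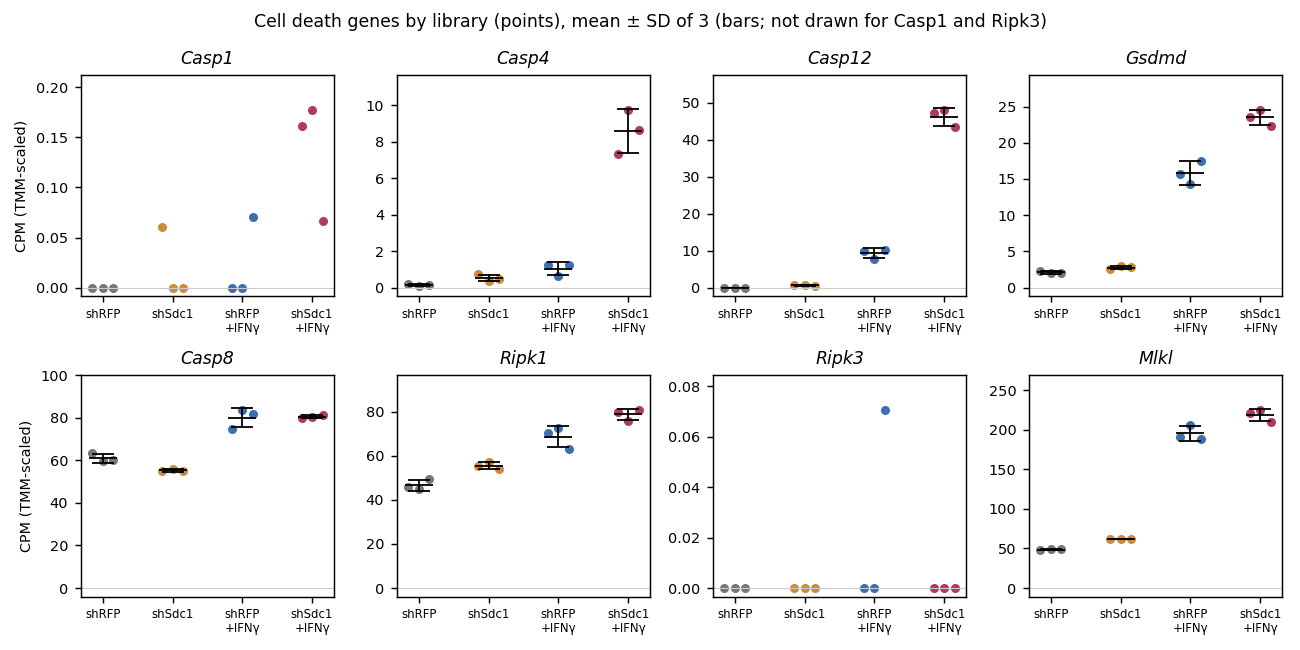
Level in TMM-scaled CPM (vertical axis, own scale per gene, linear) of each of the 8 genes in each library; points are libraries, bars the mean and SD of 3, left out for Casp1 and Ripk3. Casp4 and Casp12 stand highest in shSdc1 with IFNγ (means of 8.59 and 46.2 CPM), Mlkl and Gsdmd separate by IFNγ, and Casp1 and Ripk3 never pass 0.178 CPM.

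The 3 inflammatory caspases lie next to each other on chromosome 9 in the order Casp1, Casp4, Casp12. Casp1 (ENSMUSG00000025888) was barely detected. It had no count in untreated shRFP, 1 each in untreated shSdc1 and treated shRFP, and 3, 3 and 1 in the libraries of treated shSdc1. A count of 0 over the 3 shRFP libraries allows a level of up to 0.0563 CPM (3 counts over the group, counting error only). The 7 counts of treated shSdc1 were 6.28 times those of treated shRFP after scaling, with an exact 95% interval of 0.807 to 283, so a difference was not detectable at this depth. Fitted without the filter, Casp1 did not pass in any comparison (edgeR adjusted p of 0.41 to 1).

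Casp4 (ENSMUSG00000033538) was scarce in untreated cells and highest where knockdown and IFNγ met. It stood at 0.228, 0.119 and 0.138 CPM in the shRFP libraries (5, 2 and 2 counts) and at 0.729, 0.375 and 0.489 in shSdc1 (12, 6 and 8 counts). Treatment took it to 1.26, 0.623 and 1.27 CPM in shRFP, and to 7.36, 9.75 and 8.66 CPM in shSdc1. No range of one group reached into that of the group it was compared with. IFNγ raised it 5.94-fold in shRFP (log2 2.57 ± 0.45 SE, edgeR adjusted p = 0.000256) and 15.9-fold in shSdc1 (3.99 ± 0.27, adjusted p = 6.41e-10). The knockdown raised it 8.2-fold with IFNγ (3.04 ± 0.24, edgeR adjusted p = 1.21e-08) and 3.07-fold without (1.62 ± 0.51, adjusted p = 0.0241). The latter call rests on few counts: it was lost without shRFP replicate 2 (adjusted p = 0.0811), shRFP replicate 3 (0.0631) or shSdc1 replicate 1 (0.122), with log2 values of 1.32 to 1.99 over the alternatives.

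Casp12, which encodes an inflammatory caspase tied to the endoplasmic reticulum in the mouse, went from undetected in untreated shRFP to a mean of 46.2 ± 2.49 CPM (SD, n = 3) in treated shSdc1. Its row (ENSMUSG00000025887) had no count in the 3 shRFP libraries, and 14, 10 and 9 counts in shSdc1, that is 0.85, 0.626 and 0.55 CPM. The treated libraries had 9.92, 7.73 and 10.3 CPM (shRFP) and 47.2, 48.1 and 43.4 CPM (shSdc1). The 4 groups therefore stood apart in every pair, rising from untreated shRFP over untreated shSdc1 and treated shRFP to treated shSdc1. Against the level of 3 counts over the shRFP group, the knockdown raised it at least 12-fold (edgeR adjusted p = 1.81e-05) and IFNγ at least 164-fold (adjusted p = 2.7e-12). IFNγ raised it 67.7-fold in shSdc1 (log2 6.08 ± 0.16, edgeR adjusted p = 4.23e-15), and the knockdown 4.98-fold with IFNγ (2.32 ± 0.11, adjusted p = 4.29e-11).

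How far reads could be shared between these 3 caspases was read from their annotated transcripts. There the longest alignment of Casp4 with Casp12 was 296 bases at 71.96% identity, of Casp1 with Casp12 758 bases at 64.38%, and of Casp1 with Casp4 415 bases at 66.99%.

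Gsdmd (ENSMUSG00000022575), the pore former of pyroptosis, rose severalfold with IFNγ. It was at 2.32, 2.02 and 2 CPM in shRFP and 2.61, 2.94 and 2.81 in shSdc1. Treated shRFP libraries had 15.7, 14.3 and 17.5 CPM, and treated shSdc1 libraries 23.6, 24.5 and 22.3. All 3 shSdc1 libraries were above all 3 shRFP libraries in both conditions. IFNγ raised Gsdmd 7.38-fold in shRFP (log2 2.88 ± 0.13, edgeR adjusted p = 1.02e-12) and 8.41-fold in shSdc1 (3.07 ± 0.12, adjusted p = 9.64e-14). The knockdown raised it 1.49-fold with IFNγ (0.57 ± 0.09, edgeR adjusted p = 0.000106). Without IFNγ the difference was 0.38 ± 0.16 and did not pass (edgeR adjusted p = 0.106).

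Casp8 (ENSMUSG00000026029), whose product starts death receptor apoptosis and restrains necroptosis, was well expressed and moved little. Its shRFP libraries were at 63.5, 59.7 and 60.05 CPM and its shSdc1 libraries at 55, 56.2 and 55.04. With IFNγ the values were 75.01, 83.5 and 81.7 CPM (shRFP) and 79.8, 80.6 and 81.5 CPM (shSdc1). The treated ranges of the knockdown and control overlapped, and the untreated ones did not. IFNγ raised Casp8 1.31-fold in shRFP (log2 0.39 ± 0.05, edgeR adjusted p = 5.88e-06) and 1.45-fold in shSdc1 (0.54 ± 0.05, adjusted p = 6.84e-08). It was lower in untreated knockdown cells (-0.14 ± 0.05, edgeR adjusted p = 0.0378), but this call was lost in 9 of 15 alternatives, among them the DESeq2 test (adjusted p = 0.0896) and leaving out any 1 of the 6 libraries (0.0542 to 0.17). With IFNγ the knockdown difference was 0.01 ± 0.05 (edgeR adjusted p = 0.906), between -0.04 and 0.03 over the alternatives.

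Ripk1 (ENSMUSG00000021408), the kinase and scaffold at the start of the necroptotic route, rose modestly with each factor. It was at 45.8, 44.8 and 49.4 CPM in shRFP and 55.2, 57.2 and 54 in shSdc1. After IFNγ the levels were 70.1, 72.4 and 63.3 CPM in shRFP, and 79.8, 76 and 80.6 CPM in shSdc1. The 4 ranges did not overlap. IFNγ raised it 1.47-fold in shRFP (log2 0.56 ± 0.06, edgeR adjusted p = 3.63e-07) and 1.42-fold in shSdc1 (0.51 ± 0.06, adjusted p = 9.91e-07). The knockdown raised it by 0.25 ± 0.06 without IFNγ (edgeR adjusted p = 0.00267) and by 0.20 ± 0.06 with it (adjusted p = 0.00875), the latter call being lost without treated shRFP replicate 3 (0.14, adjusted p = 0.0607). In the annotation Gm17084, on the same strand, overlaps 511 bases of Ripk1. Gm17084 had 0 counts in every library, and how reads in the shared bases were counted was not tested. An exon of Serpinb6a on the other strand overlaps 241 bases of Ripk1, and the strand setting of the counting is not given in the sources used here. Serpinb6a had group means of 94.7 and 107.5 CPM in untreated shRFP and shSdc1 and of 113 and 120.9 CPM in the treated ones, and its part in the Ripk1 values was not tested.

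Ripk3 (ENSMUSG00000022221), the kinase that phosphorylates MLKL, was not detected beyond 1 count. That count fell in replicate 3 of treated shRFP, and the other 11 libraries had none. The level that 3 counts over a group allow was 0.0563 CPM in untreated shRFP, 0.0615 in untreated shSdc1, 0.0661 in treated shRFP and 0.0593 in treated shSdc1. No fold is given, since every group was at or under that floor.

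Mlkl (ENSMUSG00000012519), the executioner of necroptosis, was abundant in every library and rose severalfold with IFNγ. Its shRFP libraries stood at 47.8, 49.1 and 49.1 CPM and its shSdc1 libraries at 61.8, 61.8 and 61.6. IFNγ brought these to 191, 206 and 189 CPM in shRFP, and to 221, 225 and 210.4 CPM in shSdc1. The ranges of all 4 groups were separate. IFNγ raised it 4.02-fold in shRFP (log2 2.01 ± 0.05, edgeR adjusted p = 3.26e-17) and 3.54-fold in shSdc1 (1.83 ± 0.05, adjusted p = 1.04e-16). The knockdown raised it by 0.34 ± 0.05 without IFNγ (edgeR adjusted p = 2.09e-05) and by 0.16 ± 0.04 with it (adjusted p = 0.0067), which is 1.12-fold.

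Set side by side, the knockdown raised Casp4 and Casp12 by 8.2- and 4.98-fold in treated cells, and Gsdmd, Ripk1 and Mlkl by 1.49-, 1.15- and 1.12-fold. Without IFNγ 4 of the 6 genes were higher (Casp4, Casp12, Ripk1 and Mlkl), 1 was lower (Casp8) and Gsdmd did not pass, where 28.6% of all genes were called, 14% higher and 14.6% lower. Casp4 and Casp12 passed the filter through the treated groups, where they are high. With the untreated groups alone neither was kept, and 3 genes were called, 2 of them higher (Ripk1 and Mlkl). With IFNγ 5 were higher and Casp8 did not pass, where 36.3% of all genes were called and 18.9% were higher. Casp4 passed the filter through treated shSdc1, a side of this comparison, so the counts and medians given here are a description only. The ranges stood apart for 6 of 6 genes without and 5 of 6 with IFNγ, beside 43.3% and 44.9% of all genes. The median log2 difference of the 6 was 0.36 without and 0.39 with IFNγ, beside 0 and 0.02 over all genes. The melanocyte genes fell and the summed leukocyte markers were higher in the same contrasts: 8 of 8 and 7 of 8 melanocyte genes were lower, and Cd68 and Lyz2 were higher in both. Ptprc stayed at 1 count in all 12 libraries together. Without the shSdc1 library that stood apart, Casp4 (adjusted p = 0.042), Casp12, Ripk1 and Mlkl still passed without IFNγ by the edgeR test, and Casp8 did not (adjusted p = 0.106).

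**Figure D2:**
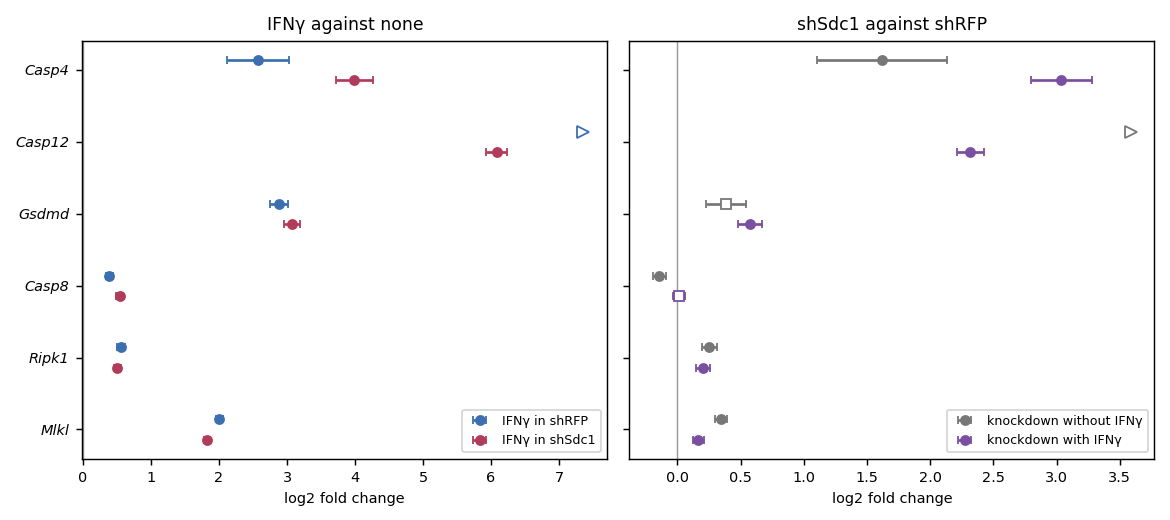
Log2 fold change of the 6 testable genes (horizontal axes) by IFNγ in each kind of cell (left) and by the knockdown with and without IFNγ (right); bars are 1 SE, filled circles passed the edgeR test, open squares did not, and open triangles are lower bounds for Casp12 against a group with 0 counts. Casp12 and Casp4 lie farthest to the right in the knockdown panel, and Casp8 lies near 0.

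Whether the knockdown effect itself differed with IFNγ was tested as an interaction. Of the 6 genes 0 were higher and 1, Casp12, was lower, where 9.73% of all genes were called, 4.58% higher and 5.15% lower. The fitted Casp12 value, -4.18 ± 1.06 on the log2 scale (edgeR adjusted p = 0.0209), depends on the prior count, since shRFP had none. The bound takes 3 counts for shRFP and leaves out the counting error of the other groups and the spread between libraries. By it, the knockdown fold was 5.01 with IFNγ from summed counts and at least 12 without. Their ratio was then at most 0.417 (log2 at most -1.26). In CPM the IFNγ rise was the other way round, 9.31 in shRFP and 45.5 in shSdc1. The call was lost without shRFP replicate 1 (adjusted p = 0.0749) or replicate 2 (0.0589). For Casp4 the interaction was 1.42 ± 0.67 and did not pass (edgeR adjusted p = 0.188), so its 8.2-fold and 3.07-fold differences were not shown to differ. Values for Mlkl (-0.18 ± 0.07, edgeR adjusted p = 0.0821), Casp8 (0.15 ± 0.07, 0.172), Gsdmd (0.19 ± 0.19, 0.575) and Ripk1 (-0.05 ± 0.08, 0.731) did not pass either, and that of Mlkl passed without treated shRFP replicate 3 (-0.21, adjusted p = 0.0405).

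Divided by exon length, levels could be ordered across genes (CPM per kilobase of exon, mean ± SD, n = 3). In shRFP, Mlkl at 21.1 ± 0.33 and Casp8 at 21.1 ± 0.73 overlapped at the top, followed by Ripk1 at 5.59 ± 0.29, Gsdmd at 0.89 ± 0.076 and Casp4 at 0.044 ± 0.016. In shSdc1 the order was Mlkl (26.8 ± 0.039), Casp8 (19.1 ± 0.23), Ripk1 (6.65 ± 0.19) and Gsdmd (1.17 ± 0.069), with Casp12 (0.176 ± 0.041) and Casp4 (0.143 ± 0.049) overlapping. With IFNγ the shRFP order was Mlkl (84.9 ± 4.14), Casp8 (27.7 ± 1.55), Ripk1 (8.22 ± 0.57), Gsdmd (6.66 ± 0.67), Casp12 (2.42 ± 0.36) and Casp4 (0.283 ± 0.0995), with no overlap between neighbours. Casp12 moved up the order in shSdc1 with IFNγ. There it stood at 12.04 ± 0.65, behind Mlkl (95.01 ± 3.24) and Casp8 (27.9 ± 0.30), ahead of the overlapping Gsdmd (9.88 ± 0.46) and Ripk1 (9.44 ± 0.30), and Casp4 followed at 2.31 ± 0.32. Casp1 was at 0.09 ± 0.04 there and Ripk3 at 0.

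**Figure D3:**
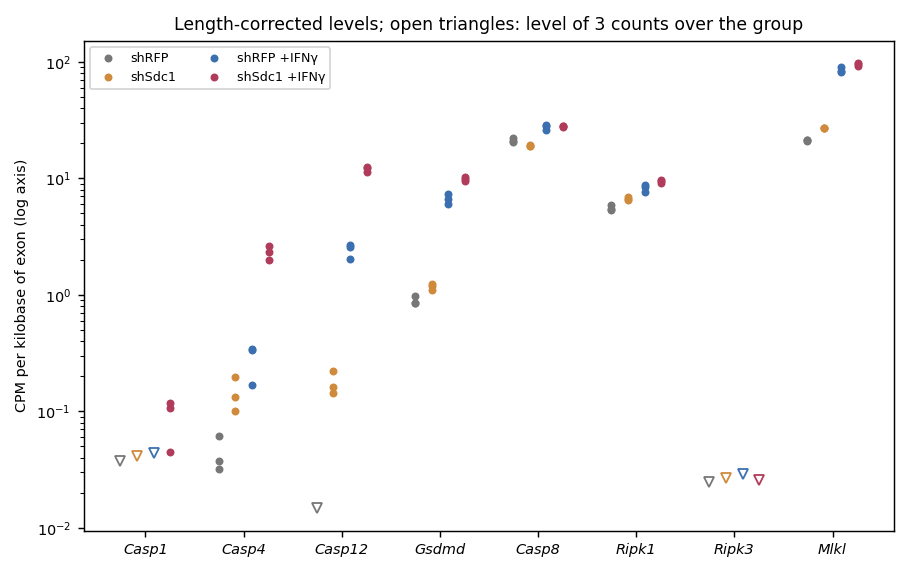
CPM per kilobase of exon (vertical axis, log scale) for each gene and library, coloured by group; open triangles mark the level of 3 counts over a group with 0 to 3 counts. Mlkl and Casp8 lead in all 4 groups, and Casp12 spans from under its floor in shRFP to 12.04 in shSdc1 with IFNγ.

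Genes whose levels ran most like each of the 6 were ranked by Pearson's r of log2(CPM + 0.5) over the 12 libraries, among 10463 genes. The points share 4 groups, libraries and depth, so r mostly follows the group means, and no p is given. Casp12 was closest to Il12rb1 (r = 0.998), a chain of the interleukin-12 receptor, which went from 1.17 CPM in shRFP to 72.5 in shSdc1 with IFNγ. Casp4 was closest to Apobec3 (r = 0.99), a cytidine deaminase that restricts viruses, with group means of 0.0502, 0.306, 0.515 and 5.19 CPM. Next came Nfkbiz (0.989), an atypical inhibitor of NF-kB, and Adamts4 (0.985), a secreted protease. Gsdmd was closest to Dtx3l (0.998), an interferon-induced ubiquitin ligase, and Mlkl to Tapbp (0.999), the peptide-loading factor tapasin. Apol9a and Apol9b (both 0.998) came next for Mlkl, and as near-identical copies may share reads. For Casp8 the leading gene was Mylip (0.99), and for Ripk1 Triobp (0.99).

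Other cell death genes were counted by list, beside the shares of all genes tested. In the knockdown without IFNγ 14% of all genes were higher and 14.6% lower, and with IFNγ 18.9% and 17.4%. With IFNγ in shRFP 17.2% were higher and 14.4% lower, and in shSdc1 17.5% and 13%. The lists are short and hold only genes that passed the filter, so their counts are a description. Stability was checked for up to 4 genes per list and comparison: 84 of 111 such calls held in every alternative, and a call said below not to hold was lost in at least 1.

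Of the other membrane pore genes, 3 of 11 listed (Gsdmc, Gsdme and Ninj1) passed the filter. With IFNγ, 3 of 3 were higher in the knockdown (median log2 0.25), of which the calls of Gsdme (adjusted p up to 0.0654) and Ninj1 (up to 0.062, edgeR and other tools) did not hold, and without it 1 of 3 (0.14). Gsdmc, another gasdermin, led with 175.8 ± 3.24 CPM in shSdc1 against 147.2 ± 0.065 in shRFP (0.26 ± 0.04, edgeR adjusted p = 0.00011), and by 0.31 ± 0.04 with IFNγ (adjusted p = 1.15e-05). Its copies Gsdmc2, Gsdmc3 and Gsdmc4 share 86.27 to 88.04% identity with it, so a few reads may be misplaced. IFNγ called 0 of 3 in shRFP (0.0041) and 1 of 3 in shSdc1 (0.09), which was Ninj1 (0.29 ± 0.06, edgeR adjusted p = 0.00104), needed for membrane rupture after the pores form.

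Inflammasome sensors were mostly silent, and 6 of 17 listed could be tested. Nlrp1b and Mefv had 0 counts in all 12 libraries and Nlrp3 had 4. IFNγ raised 2 and lowered 1 of the 6 in shRFP (median log2 -0.0097), beside 17.2% and 14.4% of all genes. It raised 1 and lowered 1 in shSdc1 (0.29), and these shSdc1 counts are near the shares of all genes. The lowered genes, Nek7 in shRFP and Dpp8 in shSdc1, did not hold. Pycard, the adaptor ASC that links sensors to caspase-1, went from 1.61 ± 0.23 to 3.62 ± 0.40 CPM in shRFP (1.19 ± 0.23, edgeR adjusted p = 0.000523). Naip2, a sensor of bacterial proteins, rose in both (0.73 ± 0.11 and 0.97 ± 0.11, edgeR adjusted p = 4.74e-05 and 8.59e-07), and its family members are 88.72 to 89.22% identical to it. The knockdown raised 1 of 6 without IFNγ (-0.05), and raised 1 and lowered 1 with it (0.02), and the calls of Dpp9 without and Pycard with IFNγ did not hold.

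Of 9 caspase-1 substrates and their receptors, 3 could be tested, and all 3 passed as higher with IFNγ in shRFP (median log2 2.23) and in shSdc1 (2.48). The call of Il1rap in shRFP did not hold (1.13-fold, edgeR adjusted p = 0.0406, lost in 9 of 15 alternatives, up to 0.171). Il18, the interleukin that caspase-1 matures, went from 1.29 ± 0.41 to 6.17 ± 0.62 CPM in shRFP (2.23 ± 0.22, edgeR adjusted p = 1.91e-07) and from 1.42 ± 0.38 to 7.94 ± 0.77 in shSdc1 (2.48 ± 0.21, adjusted p = 2.5e-08). Il18bp, its secreted decoy, rose by 2.72 ± 0.11 and 3.34 ± 0.11 (edgeR adjusted p = 1.48e-13 and 6.21e-15). Il1b had 1 count in all libraries together. The knockdown raised 1 of 3 without IFNγ (0.11) and 2 of 3 with it (0.36), led by Il1rap, the shared chain of the interleukin-1 receptors (0.71 ± 0.06 and 0.88 ± 0.06, edgeR adjusted p = 5.33e-08 and 1.92e-09).

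Death receptor genes and partners of caspase-8 were tested for 7 of 10 listed. IFNγ raised 4 of 7 in shRFP (median log2 0.35) and 4 in shSdc1 (0.60). Tnfsf10, the death ligand TRAIL, went from 1 count in the 3 shRFP libraries to 175 with IFNγ, a ratio of 205 with an exact 95% interval of 36.4 to 8160. Bid, which caspase-8 cuts to reach mitochondria, rose with both factors: its means were 34.2 ± 1.21, 59 ± 1.12, 78.9 ± 1.14 and 127.1 ± 4.73 CPM in untreated shRFP, untreated shSdc1, treated shRFP and treated shSdc1. The knockdown raised 2 and lowered 1 of 7 without IFNγ (0.11), and raised 3 and lowered 0 with it (0.02). Counted in either direction, this is near the 28.6% and 36.3% of all genes called, while 14% and 18.9% of all were higher. The call of Tnfrsf10b without IFNγ did not hold (adjusted p up to 0.0838 over the edgeR fits and other tools). Bid was higher by 0.79 ± 0.05 and 0.69 ± 0.04 (edgeR adjusted p = 5.59e-10 and 8.56e-10). Cflar, the caspase-8 inhibitor c-FLIP, was the lowered gene without IFNγ (105.8 ± 5.74 against 131.3 ± 6.17 CPM, log2 -0.31 ± 0.05, edgeR adjusted p = 0.000168), and its means with IFNγ were 169.7 ± 6.74 and 167.4 ± 7.94 CPM. Its interaction was 0.33 ± 0.07 (edgeR adjusted p = 0.00894).

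All 20 genes that ubiquitinate or check RIPK1 could be tested. IFNγ raised 9 and lowered 1 in shRFP (median log2 0.14), and raised 13 and lowered 1 in shSdc1 (0.26). Rnf31, the linear ubiquitin ligase HOIP, rose from 20.5 ± 0.31 to 59.4 ± 1.7 CPM in shRFP (1.53 ± 0.06, edgeR adjusted p = 3.36e-13) and by 1.43 ± 0.06 in shSdc1 (adjusted p = 8.67e-13). The knockdown raised 4 and lowered 1 without IFNγ (0.03), and raised 7 and lowered 0 with it (0.10). Counted in either direction, this is at the shares of all genes called (28.6% and 36.3%), while 14% and 18.9% of all were higher. Birc3 did not hold without IFNγ. Tnfaip3, the deubiquitinase A20, had means of 1.08 ± 0.26, 2.15 ± 0.53, 1.39 ± 0.15 and 4.19 ± 0.63 CPM in the order of groups used for Bid, and was higher in the knockdown in both conditions (1.02 ± 0.26 and 1.59 ± 0.23, edgeR adjusted p = 0.00648 and 2.98e-05). Birc3, the ubiquitin ligase cIAP2, was higher with IFNγ (1.62 ± 0.39, edgeR adjusted p = 0.00325). Ikbke, a kinase that restrains RIPK1, was lower without IFNγ (-0.53 ± 0.10, edgeR adjusted p = 0.000403), and its interaction passed (0.65 ± 0.14, adjusted p = 0.00576).

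The necrosome triggers and regulators, 10 of 10 tested, included a gene that went from almost no counts to a high level with IFNγ. Zbp1, a sensor of Z-form nucleic acids that can engage RIPK3, had 3 counts in shRFP, all in replicate 1, and 0 in shSdc1. With IFNγ it reached 137, 134 and 109.7 CPM in shRFP and 216, 213 and 215 CPM in shSdc1. That is 2260 times in shRFP (exact 95% interval 773 to 11000) and at least 3500-fold in shSdc1. In the treated cells the knockdown was higher by 0.76 ± 0.08 (edgeR adjusted p = 6.14e-07). IFNγ raised 5 and lowered 1 of the 10 in shRFP (median log2 0.15) and raised 4 in shSdc1 (0.0099). The knockdown raised 3 without IFNγ (0.02), and raised 5 and lowered 1 with it (0.24). The count without IFNγ is at the share of all genes called in either direction (28.6%), while 14% of all were higher. The call of Tlr3 without IFNγ did not hold (edgeR and other tools, adjusted p up to 0.0526). Tlr3, a sensor of double-stranded RNA, and its adaptor Ticam1 were higher in the treated knockdown cells (0.71 ± 0.07 and 0.37 ± 0.07, edgeR adjusted p = 9.37e-08 and 0.000357). Adar, whose editing keeps RNA from ZBP1, rose with IFNγ by 1.06 ± 0.06 in shRFP and 1.47 ± 0.06 in shSdc1, with an interaction of 0.41 ± 0.08 (edgeR adjusted p = 0.00337).

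The apoptotic caspase and apoptosome genes were all tested, 8 of 8. IFNγ raised 3 in shRFP (median log2 0.11) and 2 in shSdc1 (0.08). Casp6, a caspase of the effector group, rose in shRFP (0.50 ± 0.11, edgeR adjusted p = 0.00146), and Apaf1, the scaffold of the apoptosome, in shSdc1 (0.26 ± 0.04, adjusted p = 8.32e-05). The knockdown raised 2 and lowered 3 without IFNγ (-0.07), and lowered 3 with it (-0.07). The calls of Casp2 without IFNγ and of Casp9 and Cycs with it did not hold. Casp9, the apoptosome caspase, was lower without IFNγ (-0.29 ± 0.07, edgeR adjusted p = 0.00298), and Casp2 was lower with it (-0.21 ± 0.05, adjusted p = 0.00236).

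The ESCRT-III genes, whose products shed damaged membrane and can delay both kinds of lysis, were all tested, 12 of 12. In the knockdown 6 were lower and 0 higher without IFNγ (median log2 -0.16), and 5 were lower and 2 higher with it (-0.13), against 14.6% and 17.4% of all genes lower. Chmp4b, a filament subunit, was at 127.5 ± 1.53 CPM in shRFP and 87.02 ± 5.81 in shSdc1 (-0.55 ± 0.05, edgeR adjusted p = 7.61e-08), and at 168.4 ± 2.67 and 127.8 ± 4.72 CPM with IFNγ (-0.40 ± 0.05, adjusted p = 2.92e-06). Pdcd6ip, the adaptor ALIX, was lower without IFNγ (-0.41 ± 0.04, edgeR adjusted p = 3.29e-07), and Chmp6 in both conditions (-0.18 ± 0.05 and -0.38 ± 0.05, adjusted p = 0.00585 and 3.12e-06). Chmp4c was higher with IFNγ (1.41 ± 0.27, edgeR adjusted p = 0.000393). IFNγ raised 4 and lowered 1 in shRFP (0.04), and in shSdc1 too (0.11).

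Of the remaining caspase and protease inhibitor genes, 3 of 4 could be tested, and Casp14 had 0 counts. The knockdown raised 3 without IFNγ (median log2 0.80) and 2 with it (1.08). Without IFNγ the calls of Serpinb6b (kept in 7 of 15 alternatives) and Serpinb9 (10 of 15) did not hold. Serpinb1a, an inhibitor of neutrophil proteases that also restrains inflammatory caspases, was at 0.319, 0.831 and 0.829 CPM in shRFP and 7.72, 6.94 and 6.72 in shSdc1 (11.3-fold, edgeR adjusted p = 1.86e-09). With IFNγ its difference was 4.79 ± 0.28 (edgeR adjusted p = 1.94e-10). IFNγ raised 1 in shRFP (0.40) and 2 in shSdc1 (0.68), led by Serpinb9, an inhibitor of granzyme B (3.00 ± 0.10 and 2.51 ± 0.10, edgeR adjusted p = 1.46e-14 and 1.33e-13). The other call in shSdc1, that of Serpinb6b, did not hold (kept in 5 of 15 alternatives).

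**Figure D4:**
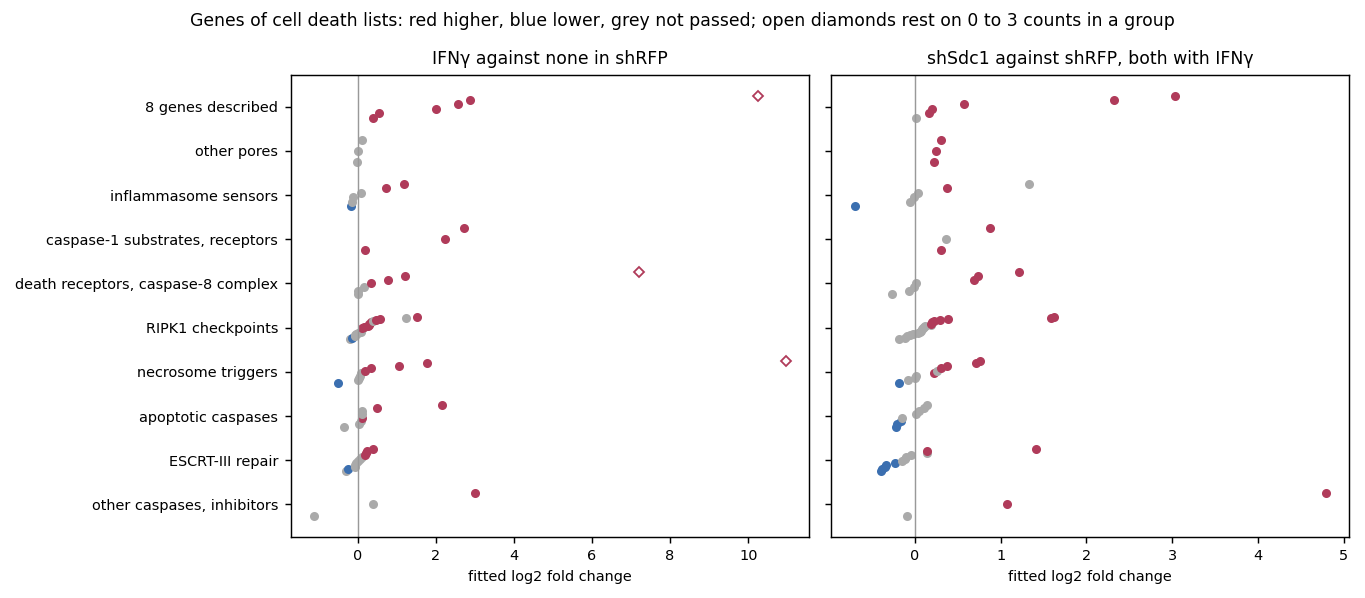
Fitted log2 fold change (horizontal axes) of each tested gene by list, for IFNγ in shRFP (left) and for the knockdown with IFNγ (right); red passed the edgeR test as higher, blue as lower, grey did not pass, and open diamonds rest on 0 to 3 counts in a group, so their place depends on the prior count. Casp12, Tnfsf10 and Zbp1 are the open diamonds at the left, and Serpinb1a at 4.79 lies farthest out at the right.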

How the data were processed

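RNA was measured in 12 libraries of B16 cells in 4 groups of 3. The authors deposited 1 table of counts, not normalized, with 56093 entries, of which 27472 had a count and 52083 a symbol. Reads were processed with HISAT2 2.0.5, Trimmomatic and HTSeq on GRCm39, per the submitters' processing notes. The gene models and strand mode are not given here. The members and lists were chosen with earlier results of these data known. Counts were fitted in edgeR 4.0.16 (R 4.3.3; quasi-likelihood, TMM, filterByExpr at a count of 10 and total of 15, all 12 libraries, 1 coefficient per group), which left 14089 genes, 8 residual degrees of freedom and a biological coefficient of variation of 0.0633. Tests are two-sided with Benjamini-Hochberg adjustment over all genes at 0.05. Where a group had 0 counts, folds are bounds taken at 3 counts in the group, and at 1 to 3 counts exact 95% intervals are given. Intervals and floors cover counting error only. Exon lengths, overlaps and similarity (BLAST 2.17.0) came from GENCODE M21 on GRCm38, another build than the counts, and promoters from RefSeq, so no coordinates were joined to counts. Per list and comparison up to 4 genes were named by size of change among those past the test and averaging 1 CPM or more in some group, and the examples printed are taken from those whose call held in every alternative (84 of 111). Some genes are not reported here. Genes of like pattern averaged 5 CPM or more in some group. On simulated counts for the knockdown with IFNγ (13501 genes), the fit called 98% of genes changed 2-fold upward, 82% of those changed 2-fold downward and 0.0526% of unchanged ones. The simulation gave all genes the same spread, changed 50 genes per fold and left out genes as scarce in shRFP as Casp4 or Casp12. Its rates therefore do not cover such genes. Alternatives were DESeq2 size factors, upper-quartile scaling, DESeq2 1.42.0, limma-voom (limma 3.58.1), no filter, a 1 CPM filter in 3 libraries, the compared groups alone, a replicate block, each library left out and, added after seeing the data, a fit without 677 assembled loci and ENSMUSG00000119584.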

Additional observations from a re-analysis of the deposited data

Results flagged for a closer look

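The knockdown effect differed with and without IFNγ by the interaction test for 9 of the 78 list genes tested, 7 with values above 0 and 2 below. This is near the 9.73% of all genes called, so nothing is read from the number. Casp12 had the value -4.18 ± 1.06 (edgeR adjusted p = 0.0209), which is negative in folds while its rise in CPM was larger in shSdc1. Values above 0, where the knockdown cells were relatively higher with IFNγ, were Ikbke at 0.65 ± 0.14 (edgeR adjusted p = 0.00576), Il18bp at 0.62 ± 0.16 (0.0238), Adar at 0.41 ± 0.08 (0.00337), Tlr3 at 0.40 ± 0.11 (0.0258), Spata2 at 0.36 ± 0.09 (0.019), Birc2 at 0.34 ± 0.09 (0.0259) and Cflar at 0.33 ± 0.07 (0.00894). Serpinb9 was at -0.50 ± 0.15 (edgeR adjusted p = 0.0433). The calls of Ikbke, Adar and Cflar held in every alternative, and those of the other 6 did not.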

How the results depend on the processing

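Of 30 results on the 6 testable genes, 25 kept their side of the threshold in every alternative that tested them, and 0 reversed among those that had passed. Casp12 in the knockdown without IFNγ and Casp4 by IFNγ in shRFP were tested in 14 of 15 alternatives. In the compared groups alone the knockdown without IFNγ called 3 of the genes and 2 higher (5 and 4 in the fit of all libraries), since that filter kept neither Casp4 nor Casp12. Leaving out each library gave 3 to 4 called in that comparison, 4 to 5 in the knockdown with IFNγ, 6 in each IFNγ comparison and 0 to 2 in the interaction, whose count over all genes ran from 789 to 1999 (1371 with all libraries; 847, 839, 789 and 822 without untreated shRFP replicates 1 and 2, untreated shSdc1 replicate 1 and treated shSdc1 replicate 2). The split of IFNγ calls moved under upper-quartile scaling as given above, and the cause was not tested. Equal replicate numbers did not pair the libraries: 18 correlations between them ran from -0.0677 to 0.0326, the own number being closest in 5 of 18. With the replicate block 3720, 4847, 4185, 4018 and 1028 genes were called in the knockdown without and with IFNγ, IFNγ in shRFP and in shSdc1, and the interaction, and Casp8 lost its call in the knockdown without IFNγ (adjusted p = 0.0581). Depth limits Casp1 and Ripk3, and the untreated Casp4 values.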
